A study of Homo sapiens with 12 samples.

Results

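TNF, IL6, IL10 and 6 related cytokine genes of monocytes were followed by RNA sequencing in THP-1 cells, a human monocytic leukaemia line, kept under elevated or normal CO2 with or without a bacterial stimulus. The 9 genes are TNF, IL6, IL10, IL23A, IL12B, LIF, EBI3, CSF1 and CSF3, taken by name from a list and matched by gene identifier, out of 57500 identifiers in the count tables. The 4 groups were 10% CO2 with LPS, 5% CO2 with LPS, 10% CO2 alone and 5% CO2 alone, with 3 libraries each. Cells spent 4 h in buffered medium in the gas chamber, and LPS (lipopolysaccharide, a component of the outer wall of Gram-negative bacteria that is sensed by TLR4) was present at 2.5 µg/ml during the last 2 h where it was given. The 10% level is hypercapnia with the pH of the medium held by buffer, and 5% is the usual level of cell culture. All 4 groups carried a lentiviral non-target shRNA, so no untransduced cells were among them. THP-1 is a single leukaemia line, and its levels are not those of blood monocytes from donors.

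Monocytes and macrophages release these cytokines within hours of sensing bacteria. TNF acts on its receptors TNFRSF1A and TNFRSF1B and drives local and systemic inflammation, while IL-6 and LIF signal through the shared chain IL6ST (gp130) and the transcription factor STAT3. IL-12 family cytokines are pairs of chains: IL12B (p40) joins IL12A to make IL-12 or IL23A (p19) to make IL-23, and EBI3 joins IL27 (p28) to make IL-27. IL-10 is the anti-inflammatory counterpart that restrains the production of many of the others, and CSF1 and CSF3 are the growth factors of monocytes (M-CSF) and neutrophils (G-CSF).

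The stretch of DNA just upstream of a gene holds sites for the factors that switch it on, and in cytokine genes these are classically NF-κB, AP-1 and C/EBP sites. A reference window of the 250 bases before the start site was found for 6 of the 9 genes in RefSeq (GRCh38.p14). LIF, CSF1 and CSF3 had none in the table, and IL10, which had 3 alternative windows, is left out because its counts were too low for a test. The windows of the other 5 genes are shown here, 5′ to 3′ on the strand of the gene, because the results below turn on how these genes answered LPS and CO2. The windows of IL23A, IL12B and IL6 lie inside the span of the gene in the count tables, and that of EBI3 partly so. For these genes the RefSeq start thus differs from the outermost start of the counted gene. Capitals mark letters that match any of 4 motifs on either strand: the NF-κB consensus (10 letters), AP-1 (TGANTCA), a C/EBP motif (10 letters) and the TATA box (TATAAA).
TNF (chr6:31575315-31575564, forward strand): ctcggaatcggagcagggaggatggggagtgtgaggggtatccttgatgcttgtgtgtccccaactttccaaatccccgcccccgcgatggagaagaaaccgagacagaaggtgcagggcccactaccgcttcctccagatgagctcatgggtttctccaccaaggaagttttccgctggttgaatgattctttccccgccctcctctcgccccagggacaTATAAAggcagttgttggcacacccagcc
IL23A (chr12:56338634-56338883, forward strand): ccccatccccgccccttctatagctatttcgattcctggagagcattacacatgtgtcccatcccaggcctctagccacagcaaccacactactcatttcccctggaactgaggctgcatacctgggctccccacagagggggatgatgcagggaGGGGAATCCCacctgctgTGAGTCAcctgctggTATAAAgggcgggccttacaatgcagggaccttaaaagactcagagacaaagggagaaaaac
IL12B (chr5:159330488-159330737, reverse strand): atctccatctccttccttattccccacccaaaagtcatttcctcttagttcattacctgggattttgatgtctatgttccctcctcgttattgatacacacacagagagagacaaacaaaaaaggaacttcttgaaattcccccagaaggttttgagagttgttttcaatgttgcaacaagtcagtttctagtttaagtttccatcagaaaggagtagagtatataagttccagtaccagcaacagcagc
EBI3 (chr19:4229273-4229522, forward strand): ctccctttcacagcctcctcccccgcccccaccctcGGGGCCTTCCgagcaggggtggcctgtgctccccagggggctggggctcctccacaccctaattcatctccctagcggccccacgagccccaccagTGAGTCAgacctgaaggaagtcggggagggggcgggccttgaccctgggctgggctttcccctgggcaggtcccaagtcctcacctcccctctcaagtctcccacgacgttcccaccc
IL6 (chr7:22726950-22727199, forward strand): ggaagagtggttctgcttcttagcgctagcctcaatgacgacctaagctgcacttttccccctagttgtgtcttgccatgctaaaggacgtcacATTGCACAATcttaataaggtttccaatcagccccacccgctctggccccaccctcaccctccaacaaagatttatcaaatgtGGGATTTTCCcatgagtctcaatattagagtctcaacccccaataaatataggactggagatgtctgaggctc

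Among 35116 windows of this length in the same table, the NF-κB consensus occurred in 9.96%, AP-1 in 6.57%, C/EBP in 0.552% and TATAAA in 10.7%. IL23A held GGGGAATCCC (NF-κB) 95 to 86 bases before the start, followed by TGAGTCA (AP-1) at 77 to 71 and TATAAA at 62 to 57. EBI3 held GGGGCCTTCC (NF-κB) at 214 to 205 and TGAGTCA at 118 to 112. IL6 held GGGATTTTCC (NF-κB) at 73 to 64 and ATTGCACAAT (C/EBP) at 156 to 147. In TNF the sole match was TATAAA at 29 to 24, and IL12B had none of these letter strings in this window. A match is a description of the letters and does not show that a factor binds there.

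Each library held 17.1 to 22.2 M gene counts, so that a floor of 3 counts corresponded to 0.132 to 0.179 CPM (the count divided by library size in M, scaled by TMM between libraries). Precision therefore differed widely between the cytokines, from 15941 TNF counts or more in an LPS library to 8 or fewer for IL10. Counting intervals and floors cover counting error only, whereas the intervals of fitted log2 changes also cover variation between libraries. The labels do not say that replicates were separate cultures, and p-values therefore reflect only how far these 3 libraries a group vary, which may be technical variation. The 13 mitochondrial mRNAs took 1.99 to 4.10% of counts in the libraries at 10% CO2 and 1.27 to 1.93% in those at 5% CO2, so no library of one CO2 level overlapped the other. With LPS the means were 3.08 ± 0.942% at 10% and 1.53 ± 0.246% at 5% CO2 (SD, n = 3 each; two-sided exact permutation p = 0.1, the smallest that 3 against 3 allow). The monocyte identity of the line was checked on 9 markers, and 9 of 9 averaged over 1 CPM in every group, with a summed level of 628 to 925 CPM. CD3D, CD3E and CD3G of T cells reached at most 0.191 CPM and the T cell marker TRAC at most 2.07 CPM. The summed T cell markers lay at 0.837 to 1.06 CPM at 10% CO2 with LPS and 1.56 to 2.22 CPM at 5% CO2 with LPS, and at 0.751 to 1.27 CPM at 10% and 1.67 to 1.93 CPM at 5% CO2 without LPS. PAX5, a B cell factor, was measured at 9.66 to 17.4 CPM and NKG7 of cytotoxic lymphocytes at 10.7 to 15.3 CPM, with no sizeable level of MS4A1 (at most 0.179 CPM) or NCR1 (at most 0.239 CPM) beside them.

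Per kilobase of exon (RPKM, the scale on which genes can be ranked), TNF was the most abundant of the 9 in every group. At 10% CO2 with LPS TNF averaged 586 RPKM and IL23A 463 RPKM, and their ranges overlapped (548 to 641 for TNF, 360 to 619 for IL23A). At 5% CO2 with LPS they did not: TNF averaged 628 RPKM (601 to 662) and IL23A 260 RPKM (216 to 333). Below these came IL12B at 36.7 RPKM and EBI3 at 25.2 RPKM at 10% CO2 with LPS, and 20.9 and 13 RPKM for the same genes at 5% CO2 with LPS, with overlapping ranges at each CO2 level. LIF (4.32 RPKM at 10%, 5.82 at 5% CO2 with LPS) and CSF1 (3.25 and 2.65 RPKM) followed, then IL6 and CSF3, which overlapped each other at 0.715 to 1.03 RPKM on average, and IL10 last at 0.128 and 0.112 RPKM. Without LPS the order of the leading genes was TNF (8.78 RPKM at 10%, 16.7 at 5% CO2), IL23A (3.50 and 3.07 RPKM) and CSF1 (0.690 and 0.954 RPKM), with every other gene under 0.4 RPKM.

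**Figure D1:**
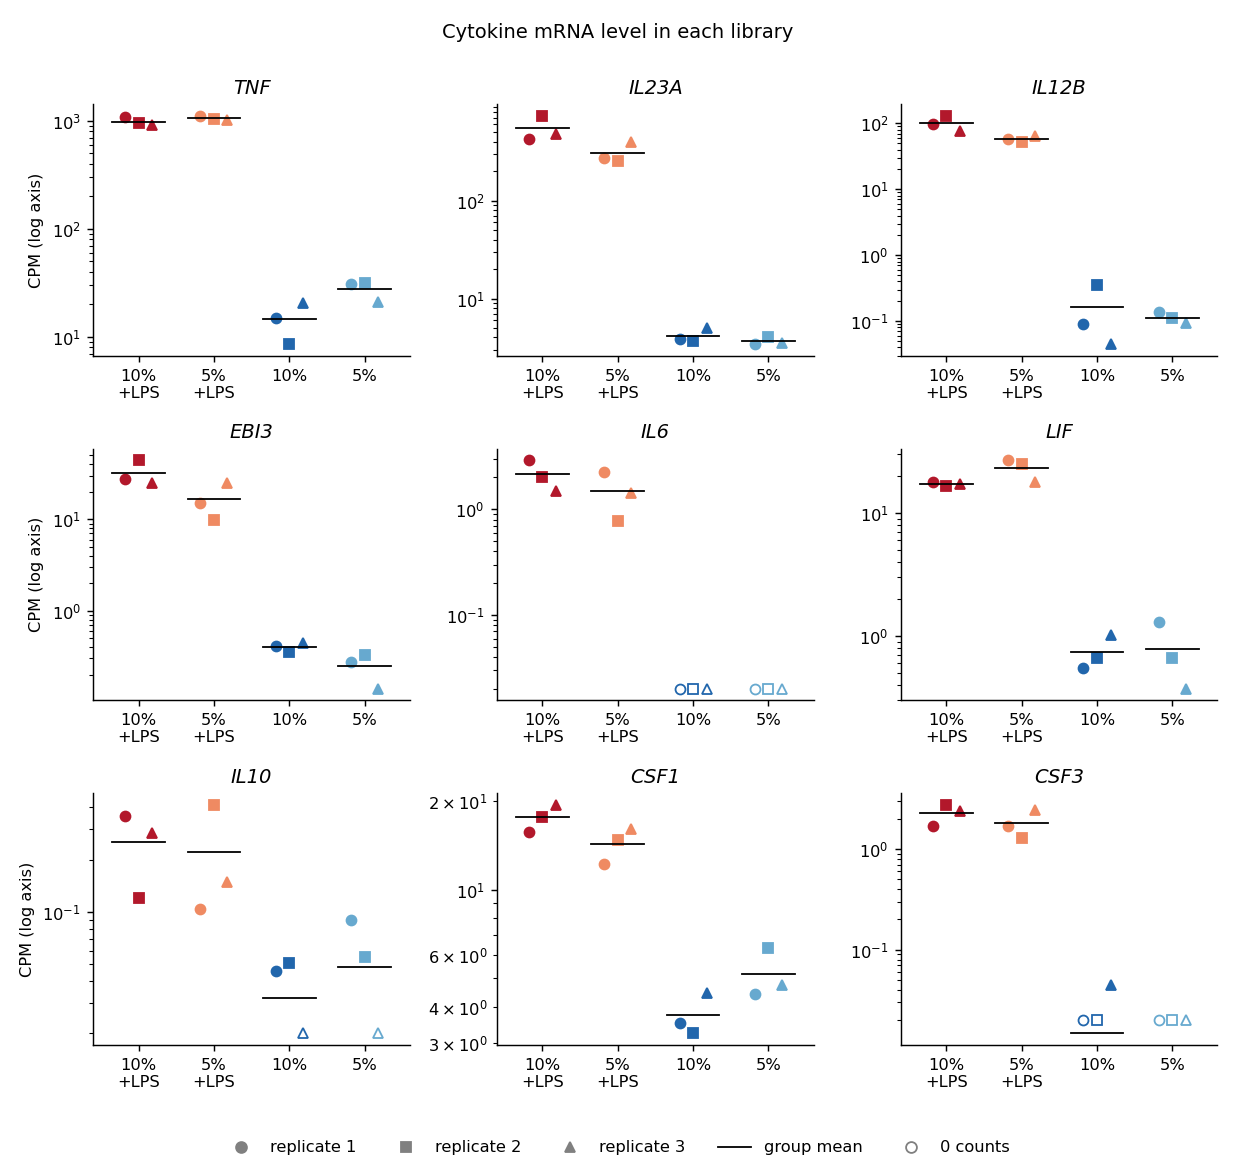
Level of each of the 9 cytokine mRNAs in every library, in CPM on a log axis, for the 4 groups in the order 10% CO2 with LPS, 5% CO2 with LPS, 10% CO2 and 5% CO2. Symbols mark the replicates, lines the group means and open symbols libraries with 0 counts, drawn at the foot of the panel. For each gene the LPS libraries lie above the libraries without LPS. For IL10 they do so barely: replicate 1 at 5% CO2 had 2 counts with LPS (0.104 CPM) and 2 without (0.0904 CPM). For IL6 all 6 libraries without LPS have 0 counts.

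The first question was how strongly each cytokine answered LPS at either CO2 level. IL12B had the largest fitted fold difference, 625-fold at 10% and 482-fold at 5% CO2, followed by IL23A, EBI3, TNF, LIF and CSF1, and IL6 and CSF3 had at most 1 count in any library without LPS. TNF, IL23A, LIF and CSF1 passed the filter on low counts without any help from the LPS libraries, and all of these 4 were called higher with LPS at 10% and at 5% CO2 (adjusted p under 0.05 over all 16402 genes tested, edgeR quasi-likelihood test). The background was 16.6% of all tested genes called higher, 18.6% lower and 35.2% in either direction at 10% CO2, and 11.8% higher, 13.1% lower and 24.9% in either direction at 5% CO2. Every LPS library of these 4 lay above every library without LPS, where 46.1% of all tested genes had groups that did not overlap at 10% and 39.2% at 5% CO2. IL6, IL12B, EBI3 and CSF3 passed that filter, at 0.492 CPM, only through their LPS libraries, so that they had to differ, and their changes are given as a description with no test. IL10 did not pass it and was not tested. RNA was taken from whole cultures, in which more cells making a cytokine and more RNA per cell cannot be told apart.

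TNF (chr6:31575567-31578336, forward strand, GRCh38), the first cytokine of the acute response, was measured at 1074, 953 and 919 CPM at 10% CO2 with LPS and at 14.9, 8.52 and 20.8 CPM at 10% CO2 alone. At 5% CO2 it had 1110, 1042 and 1007 CPM with LPS and 31.2, 31.9 and 21.1 CPM without. The 6 libraries with LPS lay within a narrow band, whereas those without LPS spread over a wider relative range. The log2 change was 6.05 ± 0.30 (SE; adjusted p = 1.18e-07) at 10% CO2 and 5.23 ± 0.29 (adjusted p = 3.88e-07) at 5% CO2, which are 66.3-fold and 37.5-fold. TNF supplied 50.1 to 64.5% of the summed CPM of the 9 genes in the libraries at 10% CO2 with LPS and 65.9 to 74.3% at 5% CO2 with LPS.

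IL23A (chr12:56334174-56340410, forward strand), the p19 chain that gives IL-23 its specificity, had 428, 735 and 485 CPM at 10% CO2 with LPS against 3.83, 3.70 and 4.95 CPM at 10% CO2 alone. At 5% CO2 it had 275, 257 and 395 CPM with LPS against 3.39, 4.02 and 3.53 CPM without. Its resting level was thus even across all 6 libraries without LPS. LPS raised it by a log2 change of 7.04 ± 0.28 (adjusted p = 3.92e-09) at 10% and 6.41 ± 0.28 (adjusted p = 1.13e-08) at 5% CO2.

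IL12B (chr5:159314783-159330887, reverse strand), the p40 chain shared by IL-12 and IL-23, had 1663, 2168 and 1595 counts (98.3, 130 and 76.1 CPM) at 10% CO2 with LPS against 2, 7 and 1 counts at 10% CO2 alone. At 5% CO2 it had 1108, 1006 and 1286 counts (57.6, 52.0 and 63.3 CPM) with LPS against 3, 2 and 2 counts without. The libraries without LPS were thus close to empty for this gene. The log2 changes were 9.29 ± 0.31 at 10% and 8.91 ± 0.34 at 5% CO2. The resting denominators are 10 and 7 counts in all, and the ratio of summed counts was 639 (95% counting interval 347 to 1334) at 10% and 510 (247 to 1268) at 5% CO2.

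EBI3 (chr19:4229498-4237531, forward strand), the second chain of IL-27, had 27.7, 44.2 and 25.2 CPM at 10% CO2 with LPS against 0.410, 0.355 and 0.442 CPM without. At 5% CO2 it had 15.2, 9.87 and 25.0 CPM with LPS against 0.271, 0.331 and 0.139 CPM without. At 5% CO2 its 3 LPS libraries were spread widely, with the highest in replicate 3. Its log2 change was 6.30 ± 0.45 at 10% and 6.07 ± 0.51 at 5% CO2. The other chains these proteins pair with stayed scarce: IL12A summed to 13 counts at 10% and 9 counts at 5% CO2 with LPS, and to 37 and 23 counts at the same CO2 levels without LPS, and IL27 to 17, 15, 6 and 12 counts in that order of groups. IL12A passed the filter and was not called in any comparison, and IL27 did not pass it. Both are named as partner chains with their values known.

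IL6 (chr7:22725884-22732002, forward strand), the main inducer of the acute-phase response, had 49, 34 and 31 counts at 10% CO2 with LPS and 43, 15 and 29 counts at 5% CO2 with LPS. No count was found in any of the 6 libraries without LPS, which allows a level of at most 0.0466 CPM at 10% and 0.0485 CPM at 5% CO2 (3 counts over each group's summed library size). IL6 was therefore at least 44.8-fold higher with LPS at 10% CO2 and at least 30.4-fold higher at 5% CO2. In absolute terms it remained a minor transcript, at 2.14 ± 0.715 CPM at 10% and 1.48 ± 0.731 CPM at 5% CO2 with LPS (SD, n = 3 each). IL6 overlaps the opposite-strand gene IL6-AS1, which had at most 2 counts in a library, and the strand setting of the counting is not given in the sources used here.

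LIF (chr22:30240447-30246851, reverse strand), a gp130 cytokine like IL-6, had 17.7, 16.5 and 17.3 CPM at 10% CO2 with LPS against 0.547, 0.659 and 1.02 CPM without. At 5% CO2 it had 26.7, 25.0 and 17.7 CPM with LPS against 1.31, 0.662 and 0.371 CPM without. It rose by 4.51 ± 0.27 on the log2 scale at 10% (adjusted p = 5.88e-10) and by 4.86 ± 0.27 at 5% CO2 (adjusted p = 2.05e-10). Its opposite-strand neighbours LIF-AS1 and LIF-AS2 had at most 10 counts in a library.

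IL10 (chr1:206767602-206772494, reverse strand) was found at 6, 2 and 6 counts at 10% CO2 with LPS and 2, 8 and 3 counts at 5% CO2 with LPS. Without LPS it had 1, 1 and 0 counts at 10% and 2, 1 and 0 counts at 5% CO2. The ratio of summed counts, LPS over no LPS, was 8.25 (95% counting interval 1.89 to 74.8) at 10% and 4.55 (1.25 to 24.9) at 5% CO2. The interval covers counting error only and no test over libraries was made, so the anti-inflammatory member of the set is described at the edge of detection after 2 h of LPS.

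CSF1 (chr1:109910242-109930992, forward strand), which keeps monocytes alive and drives their maturation, combined a measurable resting level with the smallest fitted response of the set. It had 15.7, 17.7 and 19.4 CPM at 10% CO2 with LPS against 3.51, 3.24 and 4.46 CPM without, and 12.2, 14.7 and 16.1 CPM at 5% CO2 with LPS against 4.43, 6.34 and 4.73 CPM without. The log2 change was 2.23 ± 0.17 (adjusted p = 4.45e-09) at 10% and 1.48 ± 0.16 (adjusted p = 1.27e-06) at 5% CO2. CSF3 (chr17:40015361-40017813, forward strand), which mobilises neutrophils, had 29, 46 and 50 counts at 10% CO2 with LPS and 33, 25 and 50 counts at 5% CO2 with LPS. One library at 10% CO2 alone had 1 CSF3 count and the other 5 libraries without LPS had 0. CSF3 was at least 37.8-fold higher with LPS at 5% CO2. At 10% CO2 the ratio of 125 counts to 1 was 147 (95% counting interval 26.0 to 5864).

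**Figure D2:**
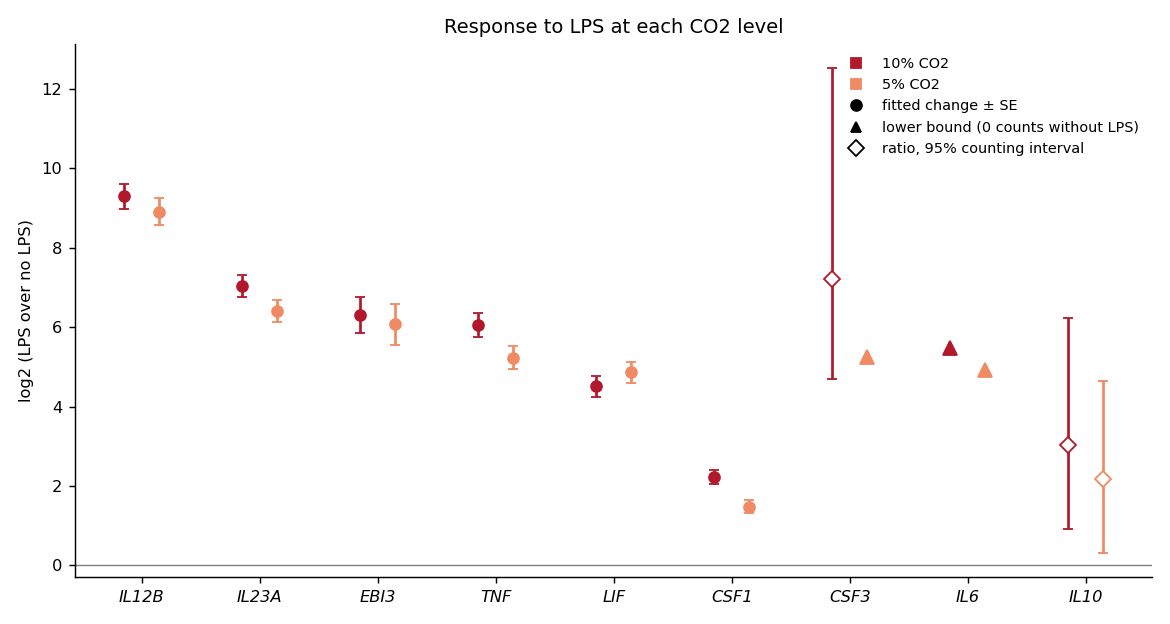
LPS response of the 9 genes at 10% CO2 (dark) and 5% CO2 (light), as log2 of LPS over no LPS. Circles are fitted changes with SE, triangles lower bounds where the libraries without LPS had 0 counts, and diamonds ratios of summed counts with 95% counting intervals; IL12B leads at 9.29 and 8.91, CSF1 is smallest among the fitted changes at 2.23 and 1.48, and IL10 has the lowest ratios.

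The second question was whether CO2 changed the cytokines once LPS was present. The 2 chains of IL-23 rose at 10% CO2: IL12B averaged 101 ± 26.9 CPM at 10% and 57.6 ± 5.63 CPM at 5% CO2 with LPS, and IL23A 549 ± 163 CPM at 10% and 309 ± 75.1 CPM at 5% CO2 with LPS (SD, n = 3 each). EBI3 lay on the same side without reaching the threshold, and TNF, IL6, IL10, CSF1, CSF3 and LIF were not called. Of the 8 tested genes, 2 were called higher and 0 lower, against a background of 4.29% of all tested genes called higher, 4.46% lower and 8.75% in either direction. By an unadjusted p under 0.05, LIF alone was lower, and no gene was called lower by DESeq2.

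For IL12B the log2 change was 0.81 ± 0.16 (adjusted p = 0.00895), which is 1.76-fold, and the 3 libraries at 10% lay above the 3 at 5% CO2. The call held when each of the 12 libraries was left out in turn (log2 change 0.61 to 0.99, adjusted p 0.00268 to 0.0472). For IL23A the log2 change was 0.83 ± 0.20 (adjusted p = 0.0313), which is 1.78-fold, again with no overlap between the groups. This call rested on particular libraries. It was lost without replicate 2 at 10% CO2 with LPS, the highest library at 735 CPM (log2 change 0.57, adjusted p = 0.0701), without replicate 1 or 2 at 5% CO2 with LPS (adjusted p = 0.117 and 0.113), and without replicate 2 at 5% CO2 or replicate 1 at 10% CO2 (adjusted p = 0.0545 and 0.0559). Over all single omissions its log2 change was 0.57 to 1.05 and its adjusted p 0.00405 to 0.117, and with the 2 LPS groups alone in the fit the adjusted p was 0.134.

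EBI3 averaged 32.4 ± 10.3 CPM at 10% and 16.7 ± 7.69 CPM at 5% CO2 with LPS, a log2 difference of 0.95 ± 0.29 with an adjusted p of 0.0631. The lowest library at 10% (25.2 CPM) and the highest at 5% CO2 (25.0 CPM) nearly touched. Without that highest library, replicate 3 at 5% CO2 with LPS, the log2 difference was 1.37 (adjusted p = 0.00199), and over all single omissions the adjusted p ran from 0.00199 to 0.215. DESeq2 gave 0.96 (adjusted p = 0.00589), the fit with no filter on low counts 0.93 (adjusted p = 0.0165) and a correction for GC content that was added after seeing the data 1.08 (adjusted p = 0.0499). The groups did not overlap for IL23A, IL12B and EBI3, 3 of the 8 tested genes, beside 31.4% of all tested genes, so that the absence of overlap alone is near the background.

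The libraries with the highest values were shared by these 3 genes. Relative to the mean at 5% CO2 with LPS, replicate 2 at 10% CO2 with LPS had 2.38 times the level of IL23A, 2.25 times that of IL12B and 2.65 times that of EBI3. Replicate 3 was the highest of the libraries at 5% CO2 with LPS for each of the 3, at 1.28, 1.10 and 1.5 times that mean. In these same 2 libraries TNF lay at 0.905 and 0.956 times the mean, so that a high level of the IL-12 family chains did not go with a high level of TNF. The mitochondrial mRNA share was also highest in the same libraries of each group, with 2.88, 4.10 and 2.25% in replicates 1, 2 and 3 at 10% CO2 with LPS and 1.58, 1.27 and 1.75% at 5% CO2 with LPS. Its part in the CO2 differences was not tested.

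**Figure D3:**
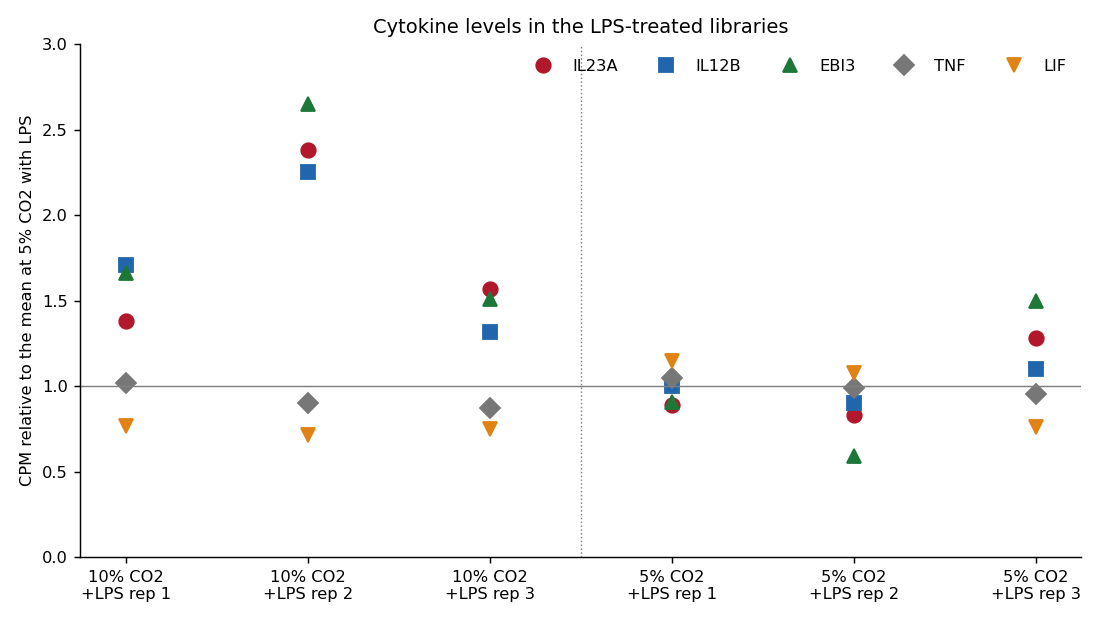
IL23A, IL12B, EBI3, TNF and LIF in the 6 LPS libraries, as CPM divided by the gene's mean at 5% CO2 with LPS (horizontal line at 1). The 3 IL-12 family chains lie between 1.32 and 2.65 in the libraries at 10% CO2 and peak in replicate 2, whereas TNF stays between 0.873 and 1.05 in all 6.

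TNF itself averaged 982 ± 81.6 CPM at 10% and 1053 ± 52.5 CPM at 5% CO2 with LPS, with overlapping libraries. Its log2 difference was -0.10 ± 0.24 (95% interval -0.63 to 0.43; adjusted p = 0.839), and 0.01 with the GC correction, so a change of the size seen for IL12B lay outside the interval, while a smaller one in either direction lay inside it. LIF was measured at 17.2 ± 0.599 CPM at 10% and 23.1 ± 4.79 CPM at 5% CO2 with LPS, a log2 difference of -0.43 ± 0.19 (unadjusted p = 0.0382, adjusted p = 0.173). The lowest LIF library at 5% CO2, replicate 3, lay at 17.7 CPM within the range at 10% CO2. IL6 had 114 counts at 10% and 87 at 5% CO2 with LPS, and its log2 difference was 0.52 ± 0.38 (95% interval -0.30 to 1.34; adjusted p = 0.432). For CSF3 it was 0.32 ± 0.32 (adjusted p = 0.568), from 2.28 ± 0.525 CPM at 10% and 1.82 ± 0.591 CPM at 5% CO2 with LPS. CSF1 differed by 0.30 ± 0.15 (adjusted p = 0.233), from 17.6 ± 1.82 CPM at 10% and 14.3 ± 1.97 CPM at 5% CO2 with LPS. IL10 summed to 14 counts at 10% and 13 at 5% CO2 with LPS, a ratio of 1.16 (95% counting interval 0.507 to 2.69), so that no difference in either direction was detectable at this depth.

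Without LPS none of the genes was called between the CO2 levels by edgeR, while TNF and CSF1 had an unadjusted p under 0.05 and DESeq2 called TNF. The background was 1.46% of all tested genes called, with 0.799% higher and 0.665% lower, and 0 genes were called without replicate 2 at 10% CO2. TNF averaged 14.7 ± 6.12 CPM at 10% and 28.1 ± 6.03 CPM at 5% CO2 (SD, n = 3 each), a log2 difference of -0.92 ± 0.27 (95% interval -1.52 to -0.33; adjusted p = 0.119). The groups nearly met, at 20.8 CPM in replicate 3 at 10% and 21.1 CPM in replicate 3 at 5% CO2. DESeq2 gave -0.93 (adjusted p = 0.0289). Without replicate 3 at 10% CO2 the log2 difference was -1.25 (adjusted p = 0.0363), and the adjusted p over all single omissions ran from 0.0363 to 0.326. TNF and EBI3 were the tested genes whose groups did not overlap, 2 of 8 beside 20.7% of all tested genes. The mitochondrial mRNA share in these libraries was 2.63 ± 0.559% at 10% and 1.55 ± 0.339% at 5% CO2, and its part in the TNF values was not tested.

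CSF1 averaged 3.74 ± 0.639 CPM at 10% and 5.17 ± 1.03 CPM at 5% CO2, a log2 difference of -0.45 ± 0.18 (unadjusted p = 0.0212, adjusted p = 0.197). IL23A averaged 4.16 ± 0.685 CPM at 10% against 3.65 ± 0.334 CPM at 5% CO2 (0.20 ± 0.31; adjusted p = 0.790). LIF, EBI3 and IL12B rested on 48 and 49, 26 and 15, and 10 and 7 summed counts at 10% and 5% CO2. Their log2 differences were -0.08 ± 0.40, 0.72 ± 0.91 and 0.44 ± 0.91, with intervals from -1.51 at the lowest to 2.70 at the highest, so a doubling either way was not detectable for EBI3 or IL12B at this depth. IL6 had 0 counts at both CO2 levels, CSF3 had 1 count at 10% and 0 at 5%, and IL10 had 2 and 3, so no fold is given for them.

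**Figure D4:**
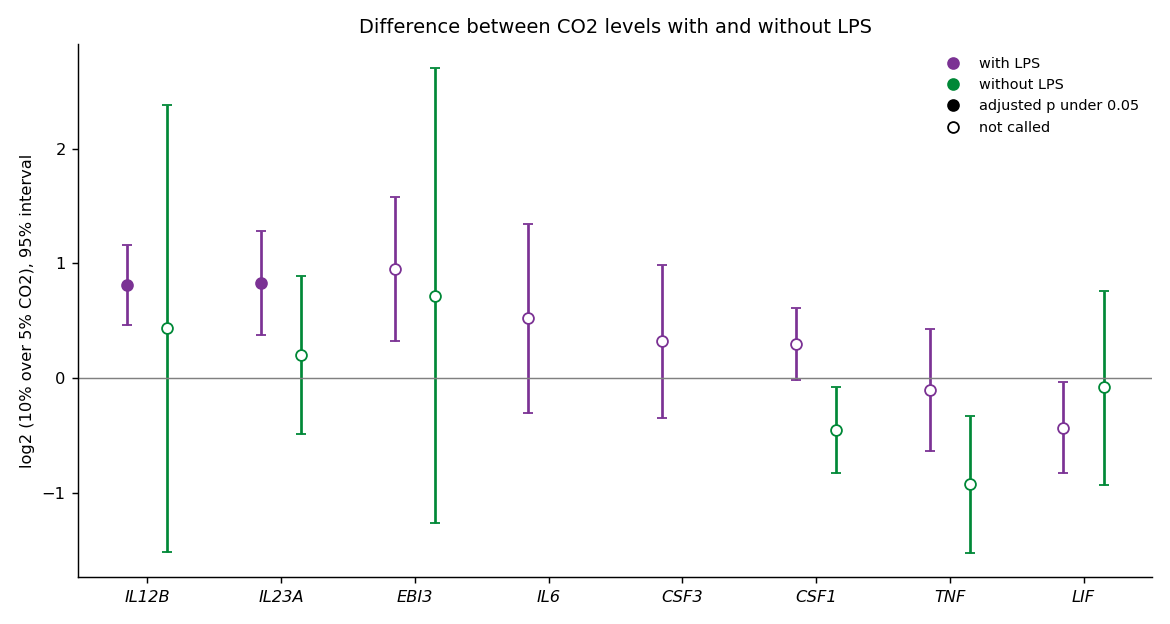
Log2 difference between 10% and 5% CO2 with 95% interval for the tested cytokine genes, with LPS (left of each pair) and without LPS (right). Filled points passed an adjusted p of 0.05, which IL12B (0.81) and IL23A (0.83) did with LPS and no gene did without; IL6 and CSF3 have no value without LPS.

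Whether the LPS response itself differed between CO2 levels was tested as an interaction, the log2 LPS change at 10% minus that at 5% CO2. By edgeR and by DESeq2, 0 of the 8 tested genes were called. Over all tested genes, edgeR called 4 (0.0244%) and DESeq2 called 55. IL6 and CSF3 had 0 or 1 summed counts in each group without LPS, too few for this test to decide. CSF1 had the smallest p, with a difference of 0.75 ± 0.24 (unadjusted p = 0.00497, adjusted p = 0.558), and TNF followed with 0.82 ± 0.35 (unadjusted p = 0.0439, adjusted p = 0.807). The interaction of IL23A was 0.63 ± 0.37 (adjusted p = 0.906), that of IL12B 0.37 ± 1.04 and that of EBI3 0.23 ± 1.05. The CO2 difference of IL12B and IL23A with LPS was therefore not shown to differ from that without LPS.

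The receptors through which these cytokines act were measured in the same cells. Of 16 receptor chains 14 were tested. With LPS, 1 was called higher and 3 lower at 10% than at 5% CO2, beside 4.29% and 4.46% of all tested genes. The median log2 difference was -0.22 beside -0.006 over all tested genes. IL12RB2, a signalling chain of the IL-12 receptor, had 102, 123 and 102 CPM at 10% CO2 with LPS and 70.8, 66.8 and 86.5 CPM at 5% CO2 with LPS. It rose by 0.54 ± 0.10 on the log2 scale (adjusted p = 0.00531), and the call held in all 12 single omissions (0.46 to 0.66, adjusted p 0.00125 to 0.0442). Its highest library at each CO2 level was the same as for IL12B, replicate 2 at 10% and replicate 3 at 5% CO2. IL12RB1, the chain it pairs with, was measured at 3.94 ± 1.01 CPM at 10% and 4.90 ± 0.692 CPM at 5% CO2 with LPS and was not called, and IL23R did not pass the filter, with 5 and 8 summed counts in the same groups.

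TNFRSF1B, the second TNF receptor, had 49.3, 29.5 and 38.8 CPM at 10% CO2 with LPS and 74.9, 67.1 and 51.0 CPM at 5% CO2 with LPS, a log2 change of -0.71 ± 0.20 (adjusted p = 0.0428). CSF1R, the receptor of CSF1, had 65.8, 42.3 and 52.6 CPM at 10% and 99.2, 78.7 and 69.0 CPM at 5% CO2 with LPS (-0.62 ± 0.17; adjusted p = 0.0423). IL6R, the IL-6 binding chain, had 277, 236 and 255 CPM at 10% and 315, 351 and 274 CPM at 5% CO2 with LPS (-0.29 ± 0.09; adjusted p = 0.0454). The ranges of IL6R overlapped, and those of TNFRSF1B and CSF1R did not. These 3 calls were fragile: they held in 5, 5 and 4 of the 12 single omissions, with adjusted p values up to 0.154 for TNFRSF1B, 0.162 for CSF1R and 0.251 for IL6R. All 3 were lost without replicate 2 or 3 at 10% CO2 with LPS, replicate 1 or 2 at 5% CO2 with LPS or replicate 2 at 5% CO2, and also under the GC correction (adjusted p = 0.12, 0.12 and 0.185). Without LPS 0 of the 14 receptor chains were called between CO2 levels by edgeR, beside 1.46% of all tested genes.

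LPS moved several of the same receptors. It raised 4 of the 14 tested receptor chains and lowered 6 at 10% CO2, beside 16.6% of all tested genes called higher and 18.6% lower, and raised 3 and lowered 3 at 5% CO2, beside 11.8% higher and 13.1% lower. TNFRSF1A, the main TNF receptor of most cells, fell to 42.8 ± 3.45 CPM at 10% CO2 with LPS, against 101 ± 7.71 CPM at 10% CO2 alone (log2 change -1.24 ± 0.09; adjusted p = 4.58e-09). At 5% CO2 it fell to 52.2 ± 3.40 CPM with LPS, against 115 ± 7.80 CPM without (-1.13 ± 0.09; adjusted p = 1.83e-08). TNFRSF1B and IL6R also fell at both CO2 levels, by 1.60 and 1.05 on the log2 scale at 10% and by 0.98 and 0.60 at 5% CO2. IL6ST, the gp130 chain used by IL-6 and LIF, rose to 81.6 ± 4.11 CPM at 10% CO2 with LPS, against 27.9 ± 6.95 CPM without, and to 56.7 ± 9.67 CPM at 5% CO2 with LPS, against 22.6 ± 3.51 CPM without. IL12RB2 rose by 1.37 ± 0.11 at 10% and 0.90 ± 0.11 at 5% CO2, and IL10RA, the ligand-binding chain for IL-10, by 1.74 ± 0.32 and 1.19 ± 0.31. The IL10RA call at 5% CO2 was lost without replicate 2 or 3 at 5% CO2 (adjusted p = 0.0782 and 0.0652), with no filter on low counts (0.0728) and with the compared groups alone in the fit (0.0523). LIFR, the second chain needed for LIF, did not pass the filter, with 7 summed counts in each LPS group.

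**Figure D5:**
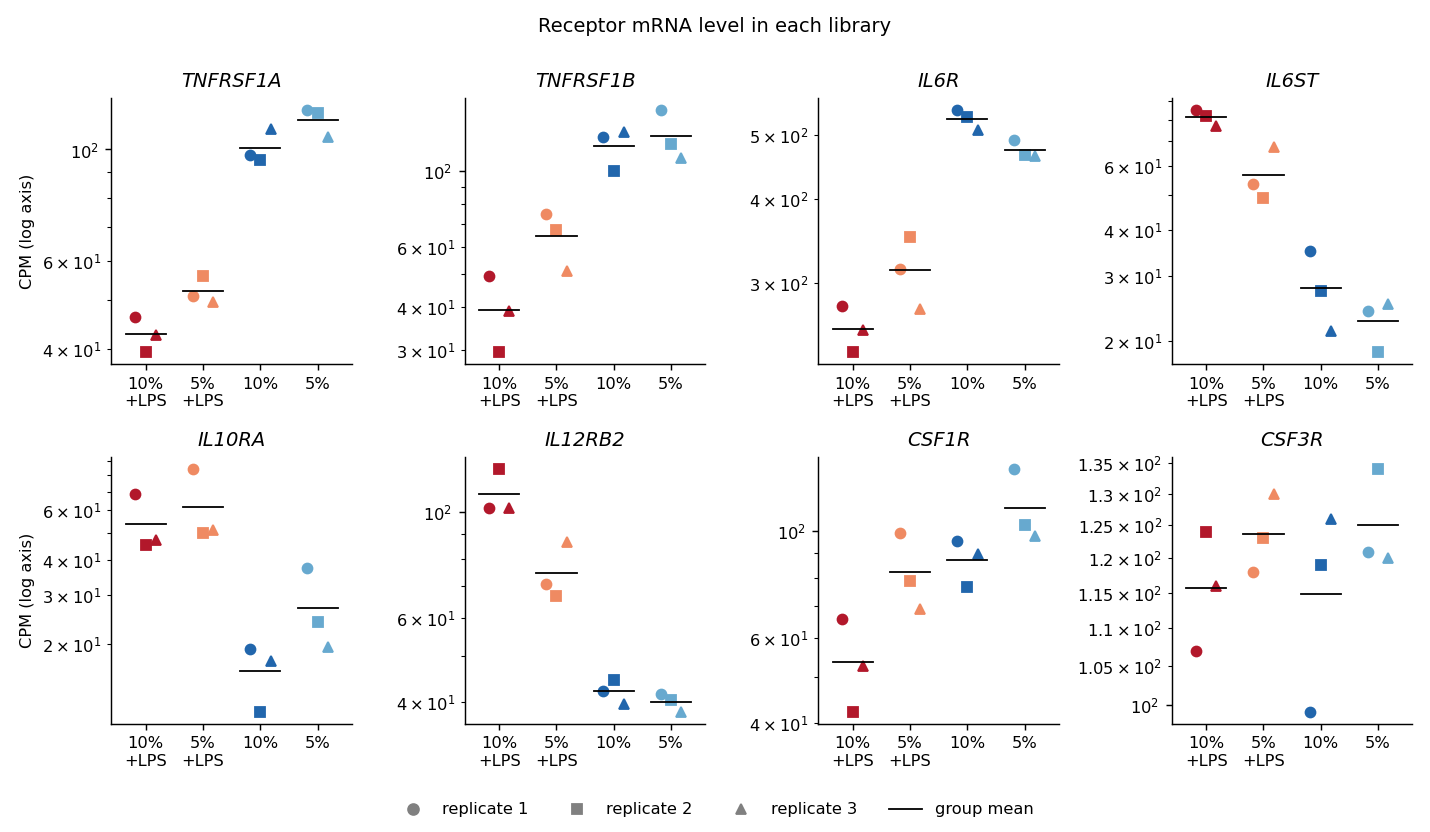
Level of 8 cytokine receptor chains in every library, in CPM on log axes whose ranges differ between panels, with the groups in the order 10% CO2 with LPS, 5% CO2 with LPS, 10% CO2 and 5% CO2. Symbols mark replicates and lines group means; TNFRSF1A, TNFRSF1B and IL6R are lower in both LPS groups, IL6ST, IL10RA and IL12RB2 higher, and IL12RB2 is higher at 10% than at 5% CO2 with LPS.

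Other cytokines of the TNF, IL-6, IL-10 and IL-12 families, listed together with CSF2, IL3 and IL34, were mostly too scarce to test: 10 of 21 were tested. By edgeR, 0 of them were called between CO2 levels, beside 8.75% of all tested genes with and 1.46% without LPS. LPS raised 4 and lowered 3 at 10% CO2, beside 16.6% of all tested genes called higher and 18.6% lower. At 5% CO2 it raised 4 and lowered 4, beside 11.8% higher and 13.1% lower. The median log2 change of the list was -0.68 at 10% and -0.17 at 5% CO2. Rises were found in neighbours of TNF in the TNF superfamily: LTB, a lymphotoxin chain, reached 79.9 ± 12.8 CPM at 10% CO2 with LPS, against 11.9 ± 1.5 CPM without (2.74 ± 0.17; adjusted p = 1.15e-09), and 57.2 ± 6.98 CPM at 5% CO2 with LPS, against 12.7 ± 3.03 CPM without (2.17 ± 0.17; adjusted p = 2.76e-08). LTA rose by 2.05 ± 0.20 and 1.70 ± 0.20, and TNFSF15 by 4.05 ± 0.27 and 2.67 ± 0.24, at 10% and 5% CO2. TNFSF9 rose by 0.75 and 0.58. Other members of the superfamily fell: TNFSF14 (LIGHT) fell by 2.47 at 10% and by 2.42 at 5% CO2. TNFSF10 (-1.03 and -0.67) and TNFSF13B (-1.02 and -1.06) were also called lower at both CO2 levels.

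The signalling and RNA decay genes that stand downstream and upstream of these cytokines showed few CO2 calls. Among 17 signal transducers, 1 was called lower at 10% than at 5% CO2 with LPS, beside 4.46% of all tested genes. This was RIPK1, a kinase at the TNF receptor, which was lower with and without LPS, at 16.6 ± 0.402 CPM at 10% and 23.1 ± 1.86 CPM at 5% CO2 with LPS (-0.47 ± 0.13; adjusted p = 0.0264) and 17.6 ± 3.30 CPM at 10% and 27.6 ± 2.60 CPM at 5% CO2 without LPS (-0.64 ± 0.12; adjusted p = 0.0184). SOCS3, the feedback inhibitor of gp130 signalling, was the transducer that answered LPS most, at 281 ± 41.5 CPM with and 4.27 ± 0.847 CPM without LPS at 10% CO2 (6.03 ± 0.17) and 250 ± 32.4 CPM with and 6.07 ± 1.11 CPM without LPS at 5% CO2 (5.36 ± 0.17). CISH, another family member of SOCS3, fell by 2.43 and by 2.14 at 10% and 5% CO2.

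For cytokine mRNA decay and TNF shedding, 16 genes were tested. Without LPS, 1 was called lower and 0 higher at 10% CO2, beside 0.665% and 0.799% of all tested genes. With LPS, 2 were called lower and 0 higher, beside 4.46% and 4.29% of all tested genes. ZFP36 (tristetraprolin), which binds AU-rich elements and marks TNF mRNA for decay, averaged 107 ± 4.21 CPM at 10% and 152 ± 17.0 CPM at 5% CO2 with LPS (-0.51 ± 0.11; adjusted p = 0.00833). Without LPS it averaged 59.8 ± 7.66 CPM at 10% and 82.2 ± 9.91 CPM at 5% CO2 (-0.46 ± 0.11; adjusted p = 0.0432). The first of these calls held in 11 of 12 single omissions and was lost without replicate 2 at 5% CO2 with LPS (adjusted p = 0.0582). ARID5A, which stabilises IL6 mRNA in mouse macrophages, averaged 38.5 ± 4.88 CPM at 10% and 67.4 ± 18.7 CPM at 5% CO2 with LPS (-0.81 ± 0.20; adjusted p = 0.0279). LPS raised 5 of the 16 genes and lowered 3 at 10% CO2, beside 16.6% of all tested genes called higher and 18.6% lower. At 5% CO2 it raised 6 and lowered 2, beside 11.8% higher and 13.1% lower. ZC3H12A (regnase-1), a nuclease that cuts IL6 and IL12B mRNA in the mouse, rose by 5.68 ± 0.18 at 10% and 5.38 ± 0.18 at 5% CO2. ADAM17, the sheddase that frees TNF from the membrane, rose by 0.94 ± 0.11 and 0.58 ± 0.11, and ZFP36 by 0.83 ± 0.11 and 0.89 ± 0.11. Lower with LPS were ZFP36L2 (-1.74 ± 0.09 at 10%, -1.67 ± 0.09 at 5% CO2) and MAPK14 (-0.88 ± 0.09 and -0.56 ± 0.09).

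Transcription factors of cytokine genes answered LPS broadly: of 20 tested, 14 rose and 3 fell at 10% CO2, 15 rose and 2 fell at 5% CO2, with median log2 changes of 2.10 and 1.79 beside -0.021 and -0.013 over all tested genes. NFKBIZ, a nuclear cofactor needed for IL6 and IL12B transcription in mouse macrophages, led with 7.42 ± 0.12 at 10% and 7.40 ± 0.12 at 5% CO2. NFKB2, RELB and NFKB1 followed with 4.62, 4.05 and 3.71 at 10% and 4.26, 3.38 and 3.20 at 5% CO2. Between CO2 levels with LPS, NFKB1 was higher (0.41 ± 0.11; adjusted p = 0.0301), at 972 ± 105 CPM at 10% and 734 ± 130 CPM at 5% CO2, and IRF5 lower (-0.40 ± 0.10; adjusted p = 0.0187). Without LPS, RELB (-0.61 ± 0.13; adjusted p = 0.0244) and BCL3 (-0.85 ± 0.17; adjusted p = 0.0222) were lower at 10% CO2. Among 12 STAT3 and IL-10 response genes, LPS raised 7 and lowered 1 at 10%, and raised 7 and lowered 0 at 5% CO2. The shares over all tested genes given above are the background here too. BCL6 (4.08 at 10%, 3.65 at 5% CO2), NFIL3 (2.16 and 2.36) and JUNB (2.69 and 2.60) rose.

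The CO2 calls in these 3 lists depended on few libraries. Without LPS, the calls of RIPK1, ZFP36, RELB and BCL3 were each lost without replicate 1 or 2 at 5% CO2 or replicate 2 at 10% CO2, with adjusted p values from 0.0534 to 0.257, and they held in 9, 4, 8 and 9 of the 12 single omissions. With LPS, the calls of RIPK1, ARID5A, NFKB1 and IRF5 were each lost without replicate 2 at 5% CO2 with LPS (adjusted p = 0.0924, 0.0759, 0.13 and 0.105) or replicate 2 at 10% CO2 with LPS (0.118, 0.132, 0.106 and 0.12). They held in 7, 8, 9 and 9 of the 12.

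For each tested cytokine the 2 genes with the closest profile over the 12 libraries were taken by the smallest root mean square difference in log2 CPM, each gene centred on its own mean, among 10805 genes that averaged 5 CPM or more. TNF was closest to BTG2 (0.29) and SOCS3 (0.31), where its own profile varied by 2.88 on the same scale. IL23A was closest to PTX3 (0.24), a secreted pattern recognition protein, and then to the identifier ENSG00000112096 (0.32), which the reference table pairs with no symbol. IL12B was closest to the chemokine genes CXCL1 and CXCL2 (0.45 each), EBI3 to RNF144B (0.40) and IL18R1 (0.41), and LIF to DUSP8 (0.29) and PPP1R15A (0.30). CSF1 was closest to BCL2L11 (0.22) and SMAD7 (0.23), CSF3 to NFKB2 (0.22) and RCAN1 (0.24), and IL6 to FEZ1 (0.33) and TNFAIP2 (0.34). The 12 points behind each likeness share the step between libraries with and without LPS.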

How the data were processed

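Poly(A)-selected RNA of 12 THP-1 libraries was sequenced. The authors deposited raw read counts per Ensembl gene. Per the submitters' processing notes, the tools were featureCounts (Subread 1.5.2), STAR 2.5.2b and Trimmomatic 0.36, on GRCh38. The sources used here give no annotation release, strand setting or rule for multimapping reads. Groups and replicate numbers came from the sample titles, and 0 count columns were left out.

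Of 57500 identifiers, 40907 had a symbol in the reference table, holding 99.1% of counts. Every pair of replicates was unlike beyond sampling noise (8.05 to 26.2 times, by chi-square over its degrees of freedom), so all libraries were kept. edgeR 4.0.16 (R 4.3.3) was run on all 12 libraries with filterByExpr by group (minimum count 10; 16402 genes), TMM and the robust quasi-likelihood F test on 4 group means. The call threshold was 0.05 after Benjamini-Hochberg adjustment over these genes. Variation between replicates beyond counting noise (edgeR's common coefficient) was 10.7%, and the test was checked on simulated data. CPM is TMM-scaled, RPKM uses the deposited exon length, and ± is the SD over 3 libraries or the SE of a fitted change. Count floors are 3 counts over a group's summed library size, and counting intervals are exact conditional binomial 95% intervals.

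The genes and lists were chosen with earlier results of these data known. Genes named from each list were among the 4 called genes with the smallest p in a comparison. Receptors of the cytokines are named as well. In the LPS comparisons of the signal transducers, only some of the called genes with the smallest p are named. TNFSF9, TNFSF10 and TNFSF13B are named in addition. For 1 signal transducer the result is not reported here. Alternatives were DESeq2 1.42.0, RLE size factors, no low-count filter, only the compared groups, a replicate block, single omissions and, added after seeing the data, a GC correction.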

Additional observations from a re-analysis of the deposited data

How the results depend on the processing

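The LPS calls of TNF, IL23A, LIF and CSF1 held under every alternative run. Between CO2 levels without LPS, 0 of the cytokines were called in the reported fit, 1 (TNF) by DESeq2, and 0 to 1 with single libraries left out. All genes called numbered 240, with 669 by DESeq2, 572 with no low-count filter, 71 in a fit of the compared groups only, 782 with the GC correction, and 0 (without replicate 2 at 10% CO2) to 511 (without replicate 1 at 10% CO2) in single omissions. With LPS, 2 cytokines were called, 3 by DESeq2, with no filter or with the GC correction (EBI3 in addition), 1 in a fit of the compared groups only, and 1 to 3 in single omissions, in which all genes called ran from 271 (without replicate 2 at 10% CO2 with LPS) to 1804. For the interaction, 4 genes were called in all, 55 by DESeq2, 1 with RLE size factors, 108 with no filter and 1 to 37 in single omissions.

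Directions turned only for differences that were never called: TNF with LPS under the GC correction (0.01), and in single omissions IL12B (-0.70 to 0.90) and LIF (-0.44 to 0.56, turning at 0.10 and 0.56) without LPS, and IL12B (-0.08 to 1.51), LIF (-0.98 to 0.01) and EBI3 (-0.06 to 0.65, with -0.05 and 0 between) in the interaction. The cause was not tested.

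The labels do not say what a replicate number shares. Deviations of same-numbered libraries correlated at -0.36 to 0.58 (0.25 to 0.58 for replicate 1), not all above 0.1, and 6 of 12 libraries correlated best with their own number, so the libraries were treated as unpaired. With the replicate block, 699 genes were called between CO2 levels without LPS, 2121 with LPS and 11 in the interaction, and no cytokine call changed (IL23A adjusted p = 0.018, EBI3 0.0731). Depth limits IL10, IL6, CSF3 and the resting levels of IL12B and EBI3, and 3 libraries a group cannot reach an exact permutation p below 0.1.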
